A study of Mus with 8 samples.

Results

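Genes of the cell cycle were followed in 3T3-L1 preadipocytes, a mouse fibroblast line that turns into fat cells under hormones, with normal and with reduced Prep1. The 58 genes form a list set by name, and fell into 13 genes of G1/S control, 16 of DNA replication, 23 of mitosis and 6 inhibitors of the cycle. All 58 were found among the 24013 genes of the count table. The filter on low counts kept 57 of them and 13339 genes in all, and the gene removed was the inhibitor Cdkn1c. C cells were infected with a lentivirus carrying a scrambled shRNA and P cells with a pLKO.1 lentivirus carrying an shRNA against Prep1, and both were selected in puromycin. RNA was sequenced from 2 replicas of each at day −2, which is counted from induction, in medium with calf serum (BCS). The other libraries, again 2 replicas each, came from day 1, 1 day after the medium was changed to 10% FBS with insulin (1 μg/ml), IBMX (0.5 mM), which raises cyclic AMP, and the glucocorticoid dexamethasone (1 μM). Since induction started 2 days after confluence, the hormones, the change of serum and the longer time in a confluent culture cannot be told apart between the days. All libraries come from a single cell line and P cells carry an shRNA against a single gene. The replicas are called biological without a description of what was repeated, so the p-values measure only the spread between these libraries.

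A cell that commits to a division first passes from G1 into S phase. Cyclins D and E with the kinases Cdk4, Cdk6 and Cdk2 phosphorylate the pocket proteins Rb1, Rbl1 and Rbl2, which frees E2F factors to switch on the genes of DNA replication. Later, cyclins A and B with Cdk1, the factors Foxm1 and Mybl2 and the spindle genes drive G2 phase and mitosis, while the inhibitors p27 (Cdkn1b), p57 (Cdkn1c) and p18 (Cdkn2c) hold the kinases in check. Confluent 3T3-L1 cells stop dividing, and the hormones send them back into the cycle for a short clonal expansion before they become fat cells.

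The libraries held 20428816 to 27614353 counts. Levels are given as CPM, which are counts scaled to a common library size with the TMM factors, where the floor of 3 counts, which allows for counting error alone, corresponds to 0.107 to 0.160 CPM. CPM are not divided by transcript length, so levels are compared between libraries and not between genes. Prep1 itself (Pknox1, NCBI gene 18771) had 28.1 and 26.5 CPM in the C replicas and 17.3 and 18.3 in the P replicas of day −2, then 38.1 and 36.5 (C) and 23.6 and 23.8 (P) on day 1. On both days the P libraries were below the C libraries, with log2 ratios of −0.62 and −0.65. The preadipocyte markers Pdgfra, Pdgfrb, Col1a1, Col1a2, Col3a1, Thy1, Dlk1 and Zfp423 all passed the filter, and macrophage, endothelial, epithelial and muscle markers reached at most 144 counts in a library. The summed CPM of the 6 fat cell markers was 60.3 to 60.9 in the C and 217 to 222 in the P replicas of day −2, then 129 to 135 (C) and 504 to 546 (P) on day 1, and its part in the differences between P and C cells was not tested. Most of this sum was Lpl, with 58.6 and 57.7 (C) and 183 and 200 CPM (P) at day −2, then 127 and 133 (C) and 417 and 375 (P). By induction Fabp4 was called lower in C cells and higher in P cells. P cells at day −2 hold a library that stands apart, replica 1. The SD over the 57 genes of the log2 difference between replicas was 0.804 in that condition. It was 0.162 for C cells before induction, 0.246 for C cells after it and 0.122 for P cells after it. The summed CPM of the 8 preadipocyte markers was 70368 in this library and 18107 in the other replica, against 12345 to 21391 in the other conditions. Most of it was collagen. In replicas 1 and 2, Col1a1 had 23560 and 4882 CPM, Col1a2 28501 and 7431 and Col3a1 15766 and 3904. Pdgfra had 196 and 195, Pdgfrb 542 and 362 and Thy1 941 and 684. Dlk1 had 857 and 645, and Zfp423 had 5.43 and 3.92. The part of these differences in the results was not tested. Results that use P cells at day −2 are therefore given with and without replica 1, and the pair is described in full at the end. Leaving out replica 1 leaves 1 library of that condition, which is then assumed to vary like the others. Calls from such fits do not measure the spread within that condition.

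**Figure D1:**
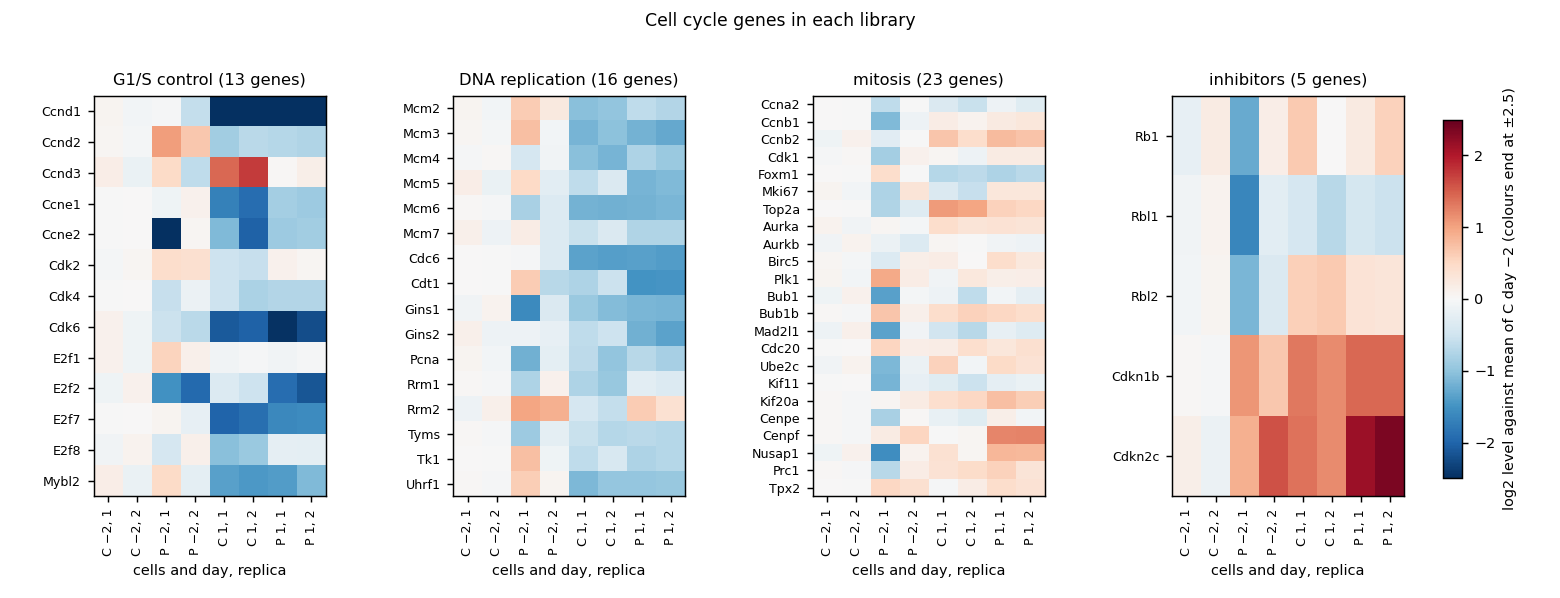
Level of each of the 57 genes tested (rows) in the 8 libraries (columns, named by cells, day and replica), as the log2 difference from the mean of C cells at day −2, with colours that end at ±2.5. At day 1 the rows of DNA replication are blue except Rrm2 in P cells, those of mitosis hold both colours, and replica 1 of P cells at day −2 differs from replica 2 in many rows.

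In C cells the genes called lower after induction belonged to G1/S control and DNA replication, and 1 of 23 genes of mitosis was called. In the edgeR test, a gene was called when its adjusted p was under 0.1 and its ratio over 2 or under 0.5. Of the 57 genes tested, 12 were called lower and 4 higher at day 1 than at day −2, where 9.68% of all genes tested were called lower and 10.7% higher. The lower ones were 5 of G1/S control and 7 of DNA replication. The 5 included Mybl2, which was listed under G1/S control although it also serves G2 phase and mitosis. The higher ones were the cyclin Ccnd3, the topoisomerase Top2a and the inhibitors Cdkn1b and Cdkn2c. At an adjusted p under 0.1 and any ratio, 22 were lower and 7 higher, against 17.4% and 18.1% of all genes. The median log2 ratio was −0.99 in G1/S control, −0.84 in DNA replication, 0.10 in mitosis and 0.63 in the 5 inhibitors tested, against −0.01 over all genes. The median of mitosis changed its sign, to −0.02, when libraries were scaled by their totals and not by TMM. In bulk RNA, fewer cycling cells and less RNA of a gene per cell cannot be told apart.

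In P cells induction called 13 genes lower and 3 higher, where 10.4% of all genes were called lower and 7.65% higher. The lower ones were again 5 of G1/S control, Mybl2 among them, and 8 of DNA replication, and the higher ones were Top2a, Nusap1 and Rbl2. At any ratio 18 were lower and 9 higher, against 17.4% and 14.0% of all genes. Without replica 1 of P cells at day −2, 8 genes were called lower, which were Ccnd1, Ccnd2, Cdk6 and E2f7 of G1/S control and Mcm3, Cdc6, Gins2 and Uhrf1 of DNA replication, and 0 higher, where 15.1% of all genes were called in either direction. Without replica 2, 14 were called lower and 16 higher, where 35.8% of all genes were called, and the lone library left is then assumed to vary like the others. The median log2 ratio was −0.41 in G1/S control, −0.90 in DNA replication, 0.40 in mitosis and 0.78 in the inhibitors, and without replica 1 it was −0.96, −0.81, 0.20 and 0.65. Scaled by library totals, the medians of the roles kept their sign, while the median over the 57 genes went from −0.11 to 0.04 and the calls to 10 lower and 5 higher. That scaling placed the median over all genes at 0.19.

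**Figure D2:**
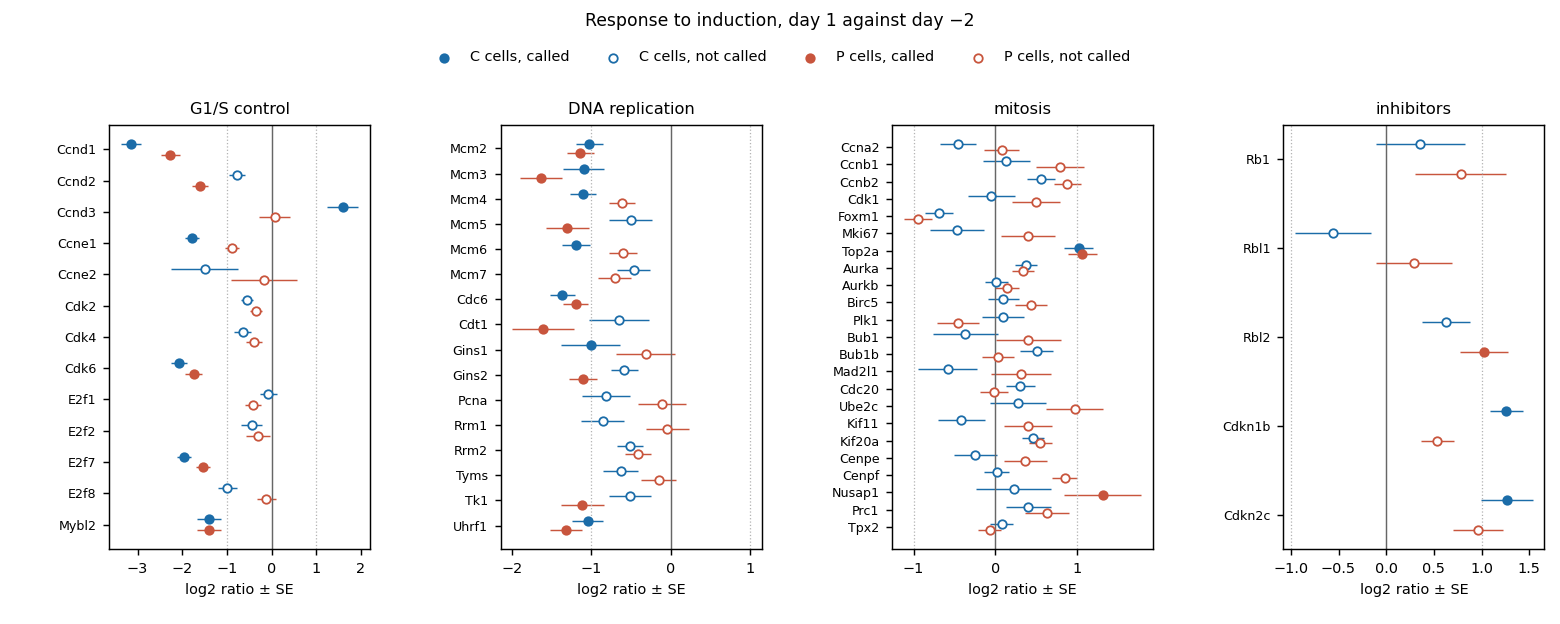
Log2 ratio of day 1 to day −2 with its standard error for each gene, in C cells (blue) and P cells (red). Filled points were called, and dotted lines mark ratios of 2 and 0.5. All 16 genes of DNA replication lie below 0 in both kinds of cell, from −1.37 to −0.47 in C cells and from −1.63 to −0.04 in P cells, where 14 did so when scaled by library totals and 12 without replica 2 of day −2.

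The D-type cyclins bind Cdk4 and Cdk6 and link growth factors to the cycle. Ccnd1 (cyclin D1, NCBI gene 12443) had 769 and 700.3 CPM in the C replicas and 720.4 and 484 in the P replicas of day −2, then 80.9 and 84.8 (C) and 129 and 120.0 (P) on day 1. All day 1 libraries were far below all day −2 libraries. The log2 ratio was −3.15 (standard error 0.22, edgeR adjusted p = 0.000234) in C cells and −2.27 (standard error 0.21, edgeR adjusted p = 0.000904) in P cells, a fall to 0.113 and 0.207 of the level at day −2. In P cells it was −1.97 without replica 1 of day −2. Ccnd2 (cyclin D2, NCBI gene 12444) had 317 and 294 CPM in the C replicas and 633 and 484 in the P replicas of day −2, then 168 and 190.2 (C) and 186 and 181 (P) on day 1. Both P libraries were above both C libraries before induction, and the day 1 libraries of C and P cells overlapped. The log2 ratio by induction was −1.61 (standard error 0.18, edgeR adjusted p = 0.00157) in P cells and −0.77 (standard error 0.17, edgeR adjusted p = 0.0187) in C cells, where it did not pass the ratio threshold. Ccnd3 (cyclin D3, NCBI gene 12445) had 101 and 80.5 CPM in the C replicas and 125 and 57.8 in the P replicas of day −2, then 244 and 303 (C) and 92.1 and 99.6 (P) on day 1. Its level at day 1 was high in both C libraries and lay among the day −2 values in both P libraries. The log2 ratio by induction was 1.59 (standard error 0.35, edgeR adjusted p = 0.0174) in C cells, where it lost its call when replica 2 of C cells at day −2 was left out, and 0.07 (standard error 0.34, edgeR adjusted p = 0.896) in P cells. Leaving out replica 1 of P cells at day −2 gave 0.72 in P cells, positive but not past the ratio threshold. Of the 3 cyclins, Ccnd1 was thus called lower in both kinds of cell, Ccnd2 lower in P cells and Ccnd3 higher in C cells.

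Cyclin E and the remaining kinases complete the passage into S phase. Ccne1 (cyclin E1, NCBI gene 12447) had 71.9 and 72.4 CPM in the C replicas and 66.7 and 77.6 in the P replicas of day −2, then 22.4 and 19.3 (C) and 40.0 and 38.4 (P) on day 1. At day 1 the P libraries lay between the C libraries of that day and all libraries of day −2. The log2 ratio was −1.79 (standard error 0.16, edgeR adjusted p = 0.000481) in C cells and −0.88 (standard error 0.15, edgeR adjusted p = 0.009) in P cells, where it was under the ratio threshold. Cdk6 (NCBI gene 12571), a partner of the D-type cyclins, had 29.5 and 25.1 CPM in the C replicas and 18.6 and 17.1 in the P replicas of day −2, then 6.31 and 6.65 (C) and 4.87 and 5.79 (P) on day 1. Every day 1 library was below every day −2 library, with log2 ratios of −2.08 (standard error 0.19, edgeR adjusted p = 0.000569) in C cells and −1.74 (standard error 0.19, edgeR adjusted p = 0.00149) in P cells. Cdk4, the other partner of the D-type cyclins, had log2 ratios of −0.64 (C) and −0.39 (P), and Cdk2, the partner of cyclin E, of −0.55 (C) and −0.35 (P), and neither was called. In P cells Cdk4 had −0.61 once replica 1 of day −2 was left out. Ccne2 (cyclin E2) had 21.3 and 21.5 CPM in C cells at day −2 and 9.94 and 5.22 at day 1, but 3.30 and 22.3 in the replicas of P cells at day −2, and it was not called.

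E2f7 and E2f8 are atypical E2F factors that repress E2F targets, and both are E2F targets themselves. E2f7 (NCBI gene 52679) had 54.1 and 54.6 CPM in the C replicas and 57.0 and 47.2 in the P replicas of day −2, then 13.4 and 14.7 (C) and 17.6 and 18.3 (P) on day 1. The days did not overlap in either kind of cell, and the log2 ratio was −1.95 (standard error 0.16, edgeR adjusted p = 0.000366) in C cells and −1.54 (standard error 0.16, edgeR adjusted p = 0.00122) in P cells. E2f8 had log2 ratios of −0.99 (C) and −0.12 (P), the latter −0.38 with replica 1 of day −2 left out, and was not called. Mybl2 (B-Myb), a factor of the late S and G2 programme, was called lower in both, at −1.41 and −1.40, and without replica 1 of P cells at day −2 it did not pass the ratio threshold in P cells. The activator E2f1 had 59.3 and 51.4 CPM in C cells at day −2 and 51.6 and 54.0 at day 1, which overlapped, and neither E2f1 nor E2f2 was called by induction.

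**Figure D3:**
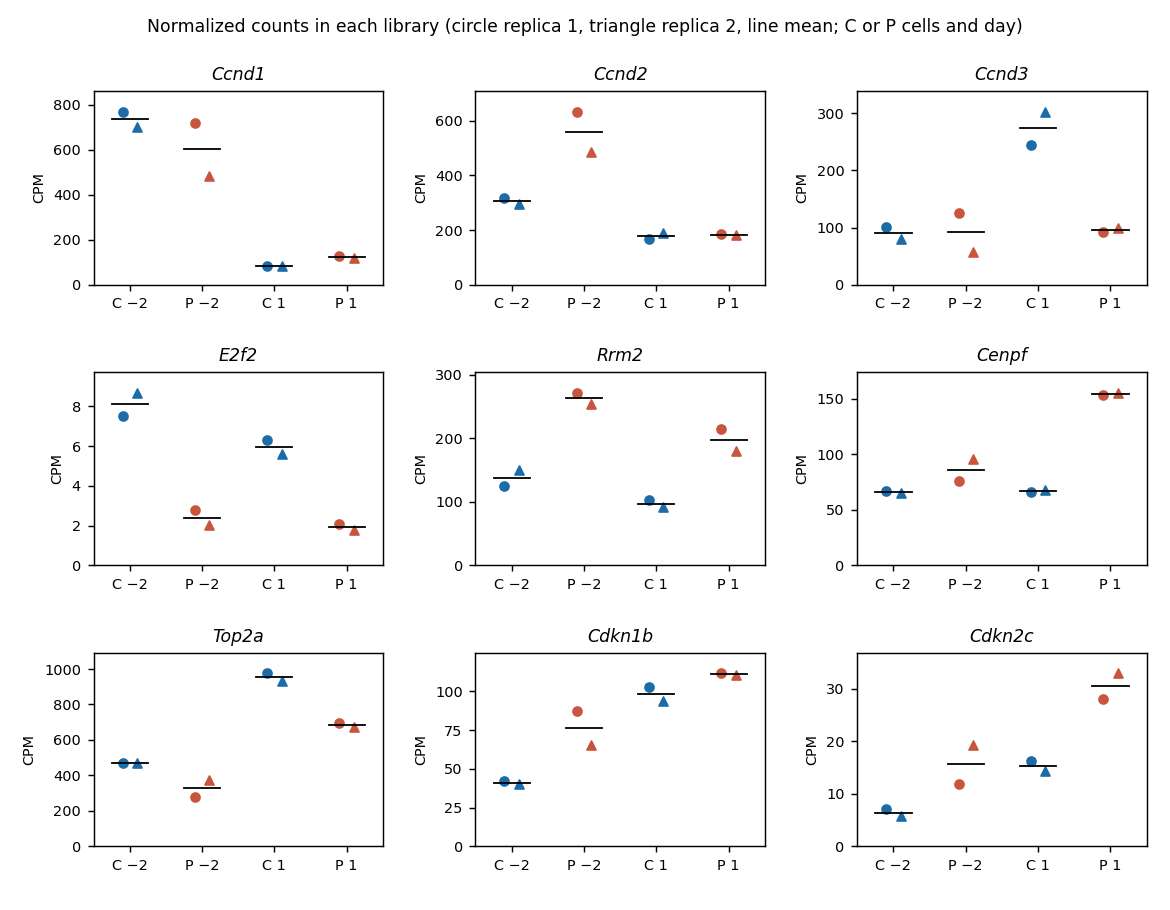
CPM in each library for 9 genes, with C cells in blue, P cells in red, replica 1 as a circle, replica 2 as a triangle and the mean as a line. Ccnd1 is low in all day 1 libraries, Ccnd3 is high in C cells at day 1 while its P replicas of day −2 lie on both sides of those of day 1, and E2f2 is low and Rrm2 high in the P libraries of both days.

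All 16 genes of DNA replication had negative log2 ratios in both kinds of cell. In C cells 12 of them were lower at an adjusted p under 0.1 in edgeR and any ratio, as were 17.4% of all genes. Scaled by library totals, 16 were negative in C cells and 14 in P cells. The count for P cells was 16 without replica 1 of day −2 and 12 without replica 2. Cdc6 (NCBI gene 23834), which loads the helicase at origins, had 51.1 and 50.4 CPM in the C replicas and 49.6 and 40.2 in the P replicas of day −2, then 20.0 and 19.4 (C) and 19.7 and 19.3 (P) on day 1. The C and P libraries overlapped at day 1, and both days were apart in each kind of cell, with log2 ratios of −1.37 (standard error 0.16, edgeR adjusted p = 0.00145) and −1.20 (standard error 0.16, edgeR adjusted p = 0.0031). The latter was −1.05 without replica 1 of P cells at day −2.

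The Mcm genes encode the 6 subunits of the replicative helicase, which work as 1 ring, and they did not all pass the thresholds. Mcm2 (NCBI gene 17216) had 282 and 260.0 CPM in the C replicas and 420.2 and 322 in the P replicas of day −2, then 131 and 136 (C) and 175 and 162 (P) on day 1. It fell in both, by 1.02 and 1.14 on the log2 scale, values close to the threshold of a ratio of 0.5. Mcm4 (NCBI gene 17217) had 309.6 and 327 CPM in the C replicas and 238 and 301 in the P replicas of day −2, then 154 and 142 (C) and 185 and 168 (P) on day 1. Mcm6 (NCBI gene 17219) had 279 and 270.4 CPM in the C replicas and 157 and 217 in the P replicas of day −2, then 122 and 119 (C) and 122 and 125 (P) on day 1. Both genes were called lower in C cells, at −1.10 and −1.19, and not in P cells, at −0.61 and −0.60, where replica 1 at day −2 already had the lowest value of that day and where leaving it out gave −0.78 and −0.82, again not called. Mcm3 was called lower in both, at −1.10 and −1.63. Mcm5 was called in P cells alone, at −1.30 against −0.50 in C cells, and Mcm7 was called in neither, at −0.70 and −0.47. With replica 1 of P cells at day −2 left out, the ratios of Mcm2, Mcm5 and Mcm7 in P cells were −0.94, −0.89 and −0.42, so that the calls of Mcm2 and Mcm5 were lost, and that of Mcm3 stood at −1.17. None of the 6 had an interaction that passed the test, so these calls do not show that the response of C and P cells differs.

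Uhrf1 (NCBI gene 18140), which reads newly replicated DNA for the maintenance of methylation, had 176 and 168 CPM in the C replicas and 264 and 179.9 in the P replicas of day −2, then 79.3 and 87.5 (C) and 88.3 and 89.0 (P) on day 1. It was lower in all day 1 libraries, with log2 ratios of −1.05 (standard error 0.20, edgeR adjusted p = 0.0101) in C cells and −1.32 (standard error 0.20, edgeR adjusted p = 0.00539) in P cells. Gins2 (NCBI gene 272551), a subunit of the GINS complex of the helicase, had 20.1 and 17.0 CPM in the C replicas and 16.9 and 15.9 in the P replicas of day −2, then 11.9 and 12.9 (C) and 8.03 and 7.24 (P) on day 1. It was called lower in P cells (log2 ratio −1.11, standard error 0.18, edgeR adjusted p = 0.00692) and was under the ratio threshold in C cells (log2 ratio −0.58, standard error 0.17, edgeR adjusted p = 0.0496), while Gins1 was called in C cells (−1.01) and lost that call in 12 of the 17 alternatives tried. The licensing factor Cdt1 had log2 ratios of −0.65 in C cells and −1.61 in P cells, where it was called, and at day −2 its P replicas had 107 and 42.8 CPM. Tk1, which makes thymidine monophosphate, was called lower in P cells as well (−1.12, against −0.51 in C cells). Neither Cdt1 nor Tk1 was called without replica 1 of P cells at day −2, at −0.81 and −0.63.

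The remaining genes of the group supply nucleotides or hold the polymerase. In C cells the log2 ratio was −0.82 for the sliding clamp Pcna, −0.86 for the large subunit of ribonucleotide reductase, Rrm1, −0.51 for its small subunit, Rrm2, and −0.63 for thymidylate synthase, Tyms. All 4 had an edgeR adjusted p under 0.1 in C cells and missed the ratio threshold. In P cells they had −0.11, −0.04, −0.41 and −0.15, with adjusted p-values of 0.814, 0.926, 0.118 and 0.652 in the edgeR test. With replica 1 of day −2 left out they had −0.52, −0.43, −0.37 and −0.45, all short of the ratio threshold. The table also lists the pseudogene Tyms-ps, which had 0 to 4 counts in a library.

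Of the 23 genes of mitosis, 15 had a positive and 8 a negative log2 ratio by induction in C cells, and 19 had a positive and 4 a negative one in P cells. Without replica 1 of P cells at day −2 the tally in P cells was 15 positive and 8 negative, as in C cells, and without replica 2 it was 18 and 5. Scaled by library totals, 10 were positive in C cells and 21 in P cells. Top2a (NCBI gene 21973), which untangles sister chromatids, had 471 and 468 CPM in the C replicas and 278 and 377 in the P replicas of day −2, then 975 and 934 (C) and 698 and 672 (P) on day 1. Every day 1 library was above every day −2 library, and at each day the C libraries were above the P libraries. The log2 ratio was 1.03 (standard error 0.18, edgeR adjusted p = 0.00706) in C cells and 1.07 (standard error 0.18, edgeR adjusted p = 0.00766) in P cells. In C cells it was under the threshold when scaled by library totals, and in P cells it was 0.85 and under the threshold without replica 1 at day −2.

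Ccnb2 (cyclin B2, NCBI gene 12442), which activates Cdk1 at the entry into mitosis, had 49.4 and 57.5 CPM in the C replicas and 44.0 and 52.6 in the P replicas of day −2, then 85.7 and 72.1 (C) and 91.8 and 86.9 (P) on day 1. The days did not overlap, and the log2 ratio was 0.56 (standard error 0.17, edgeR adjusted p = 0.05) in C cells and 0.89 (standard error 0.17, edgeR adjusted p = 0.013) in P cells, under the threshold in both. Kif20a (NCBI gene 19348), a kinesin of the cleavage plane, had 260.5 and 251 CPM in the C replicas and 266 and 294 in the P replicas of day −2, then 340.4 and 365 (C) and 429.8 and 392 (P) on day 1. It too was above its day −2 values in all day 1 libraries, by a log2 ratio of 0.46 (standard error 0.14, edgeR adjusted p = 0.0485) in C cells and 0.55 (standard error 0.14, edgeR adjusted p = 0.0323) in P cells. Cenpf (NCBI gene 108000), a kinetochore protein of G2 and mitosis, had 67.3 and 65.0 CPM in the C replicas and 75.9 and 95.5 in the P replicas of day −2, then 65.8 and 68.2 (C) and 154 and 156 (P) on day 1. The C libraries of both days overlapped and the P libraries of day 1 were the highest of the 8, with a log2 ratio by induction of 0.02 in C cells and 0.85 (standard error 0.15, edgeR adjusted p = 0.0101) in P cells.

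Foxm1 (NCBI gene 14235), a factor that switches on many genes of mitosis, had 204 and 201 CPM in the C replicas and 273 and 202 in the P replicas of day −2, then 123 and 128 (C) and 119 and 127 (P) on day 1. All day 1 libraries were lower, by log2 ratios of −0.69 (standard error 0.17, edgeR adjusted p = 0.0275) in C cells and −0.95 (standard error 0.17, edgeR adjusted p = 0.0109) in P cells, again under the ratio threshold. Among the other genes of mitosis the log2 ratio in C cells was −0.46 for cyclin A2 (Ccna2), 0.14 for cyclin B1 (Ccnb1) and −0.05 for Cdk1. In P cells these were 0.08, 0.79 and 0.50, and −0.21, 0.37 and 0.09 with replica 1 of day −2 left out. The proliferation marker Mki67 had 404 and 371 CPM in the C replicas and 226 and 487 in the P replicas of day −2, then 300.2 and 261 (C) and 470.1 and 474 (P) on day 1. Its replicas at day −2 lay so far apart in P cells that both day 1 libraries fell between them. Nusap1, a spindle protein, was called higher in P cells at 1.32, with 13.0 and 41.2 CPM at day −2 and 68.6 and 67.4 at day 1. Without replica 1 of day −2 its log2 ratio was 0.71, not past the ratio threshold.

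The chromosomal passenger genes Aurkb and Birc5 had log2 ratios of 0.01 and 0.10 (C) and 0.14 and 0.44 (P). For the spindle kinases Aurka and Plk1 these were 0.38 and 0.10 (C) and 0.34 and −0.45 (P). The genes of the spindle checkpoint and of the complex that ends it, Bub1, Bub1b, Mad2l1, Cdc20 and Ube2c, lay between −0.58 (Mad2l1) and 0.51 (Bub1b) in C cells and between −0.02 (Cdc20) and 0.97 (Ube2c) in P cells. The motor and spindle genes Kif11, Cenpe, Prc1 and Tpx2 lay between −0.41 (Kif11) and 0.41 (Prc1) in C cells and between −0.07 (Tpx2) and 0.63 (Prc1) in P cells. None of these 13 genes was called by induction in either kind of cell. In P cells several of these values turned on replica 1 of day −2, and with it left out Birc5 had 0.20, Plk1 −0.04, Mad2l1 −0.18, Bub1 −0.11, Bub1b 0.34, Cdc20 0.17, Ube2c 0.56, Kif11 −0.01 and Prc1 0.25.

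Among the inhibitors, p27 and p18 were called higher after induction in C cells. Cdkn1b (p27, NCBI gene 12576) had 42.0 and 40.1 CPM in the C replicas and 87.6 and 65.6 in the P replicas of day −2, then 103 and 93.4 (C) and 112 and 111 (P) on day 1. The C libraries at day −2 were the lowest, the P libraries of that day came next and did not overlap them, and all day 1 libraries were higher. The log2 ratio by induction was 1.26 (standard error 0.17, edgeR adjusted p = 0.00294) in C cells and 0.54 (standard error 0.17, edgeR adjusted p = 0.0663) in P cells, where it was under the ratio threshold. Cdkn2c (p18, NCBI gene 12580), which binds Cdk4 and Cdk6, had 7.05 and 5.72 CPM in the C replicas and 11.9 and 19.3 in the P replicas of day −2, then 16.3 and 14.4 (C) and 28.1 and 32.9 (P) on day 1. The 4 conditions had the lowest values in C cells at day −2 and the highest in P cells at day 1, and P cells before induction lay around C cells after it. Its log2 ratio was 1.26 (standard error 0.27, edgeR adjusted p = 0.0157) in C cells and 0.97 (standard error 0.26, edgeR adjusted p = 0.0425) in P cells. In C cells it lost the call without replica 2 of day −2. Cdkn1c (p57, NCBI gene 12577) had 1 and 3 counts in the C replicas and 0 and 1 in the P replicas of day −2, then 2 and 4 (C) and 4 and 5 (P) on day 1, at or near the floor of 3 counts, and no ratio is given.

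The pocket proteins were not called in C cells. Rb1 (NCBI gene 19645) had 6.38 and 8.51 CPM in the C replicas and 3.04 and 8.31 in the P replicas of day −2, then 11.7 and 7.37 (C) and 8.68 and 11.0 (P) on day 1, with replicas that overlapped between the days in C cells. Rbl1 (p107, NCBI gene 19650) had 36.9 and 42.1 CPM in the C replicas and 12.6 and 32.9 in the P replicas of day −2, then 29.5 and 24.2 (C) and 29.0 and 27.0 (P) on day 1. Its log2 ratio was −0.56 (C) and 0.30 (P), the latter −0.24 with replica 1 of day −2 left out, and it was not called. Rbl2 (p130, NCBI gene 19651), the pocket protein typical of resting cells, had 31.0 and 34.3 CPM in the C replicas and 14.7 and 25.4 in the P replicas of day −2, then 49.6 and 51.4 (C) and 41.6 and 40.3 (P) on day 1. It was above its day −2 values in all day 1 libraries, by a log2 ratio of 0.63 (standard error 0.25, edgeR adjusted p = 0.109) in C cells and 1.03 (standard error 0.25, edgeR adjusted p = 0.0312) in P cells. Without replica 1 of day −2 it was 0.68 in P cells, not past the ratio threshold.

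Before induction few of these genes were called between P and C cells, which does not show that the others had equal levels. In the main fit 15 of the 57 had an unadjusted p under 0.05 in edgeR, and the share of all genes at that p was not counted. At day −2, 1 gene was called higher in P cells, Cdkn2c, and 1 lower, E2f2, where 4.83% of all genes were called higher and 2.15% lower. At any ratio 4 were higher, Ccnd2, Rrm2, Cdkn1b and Cdkn2c, against 7.62% of all genes, and 2 were lower, E2f2 and Cdk6, against 3.72%. The median log2 ratio was −0.06 in G1/S control, −0.12 in DNA replication, −0.19 in mitosis and −0.38 in the inhibitors, and without replica 1 of P cells it was −0.13, −0.22, 0.04 and 0.17. Over the 57 genes it was −0.14, against 0.01 over all genes, and −0.04 without replica 1 of P cells. Without that replica Cdkn2c and E2f2 were again the 2 genes called, where 6.49% of all genes were called in either direction. Without replica 2, 15 were called, 13 of them lower, where 31.3% of all genes were called. In a fit of the day −2 libraries alone, 0 were called by edgeR, where 0.637% of all genes were called, and 6 had an unadjusted p under 0.05. All calls in these comparisons rest on 2 libraries against 2, and leaving out replica 1 or replica 2 of C cells at day −2 left 0 calls, with 5 and 6 genes at an unadjusted p under 0.05 in edgeR, in fits that called 1.38% and 1.34% of all genes.

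E2f2 (NCBI gene 242705), an E2F factor that activates replication genes, had 7.49 and 8.68 CPM in the C replicas and 2.77 and 2.03 in the P replicas of day −2, then 6.31 and 5.57 (C) and 2.09 and 1.77 (P) on day 1. All 4 P libraries were below all 4 C libraries. Its log2 ratio, P over C, was −1.76 (standard error 0.25, edgeR adjusted p = 0.0124) at day −2 and −1.62 (standard error 0.26, edgeR adjusted p = 0.0233) at day 1, comparisons that share no library. At day −2 it was −1.98 without replica 1 of P cells. Its relatives E2f1, E2f7 and E2f8 had 0.36, −0.06 and −0.12 at day −2 and 0.01, 0.35 and 0.76 at day 1, and none was called. With replica 1 of P cells left out they had 0.13, −0.20 and 0.14 at day −2. Cdkn2c was higher in P cells by a log2 ratio of 1.29 (standard error 0.27, edgeR adjusted p = 0.0436) at day −2 and 0.99 (standard error 0.26, edgeR adjusted p = 0.108) at day 1, where it missed the threshold. The call at day −2 was not made when libraries were scaled by their totals, at 1.13 (edgeR adjusted p = 0.105). Without replica 1 of P cells the log2 ratio was 1.60. The log2 ratio of Cdkn1b was 0.90 (standard error 0.17, edgeR adjusted p = 0.0325) at day −2 and 0.18 at day 1, and that of Ccnd2 was 0.87 (standard error 0.17, edgeR adjusted p = 0.0365) at day −2 and 0.03 at day 1. Ccnd1 and Ccnd3 had −0.29 and 0.01 at day −2, and with replica 1 of P cells left out they had −0.59 and −0.64, both short of the ratio threshold. For Rb1, Rbl1 and Rbl2 the ratios at day −2 were −0.38, −0.79 and −0.70, and without replica 1 of P cells they were 0.17, −0.26 and −0.35.

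**Figure D4:**
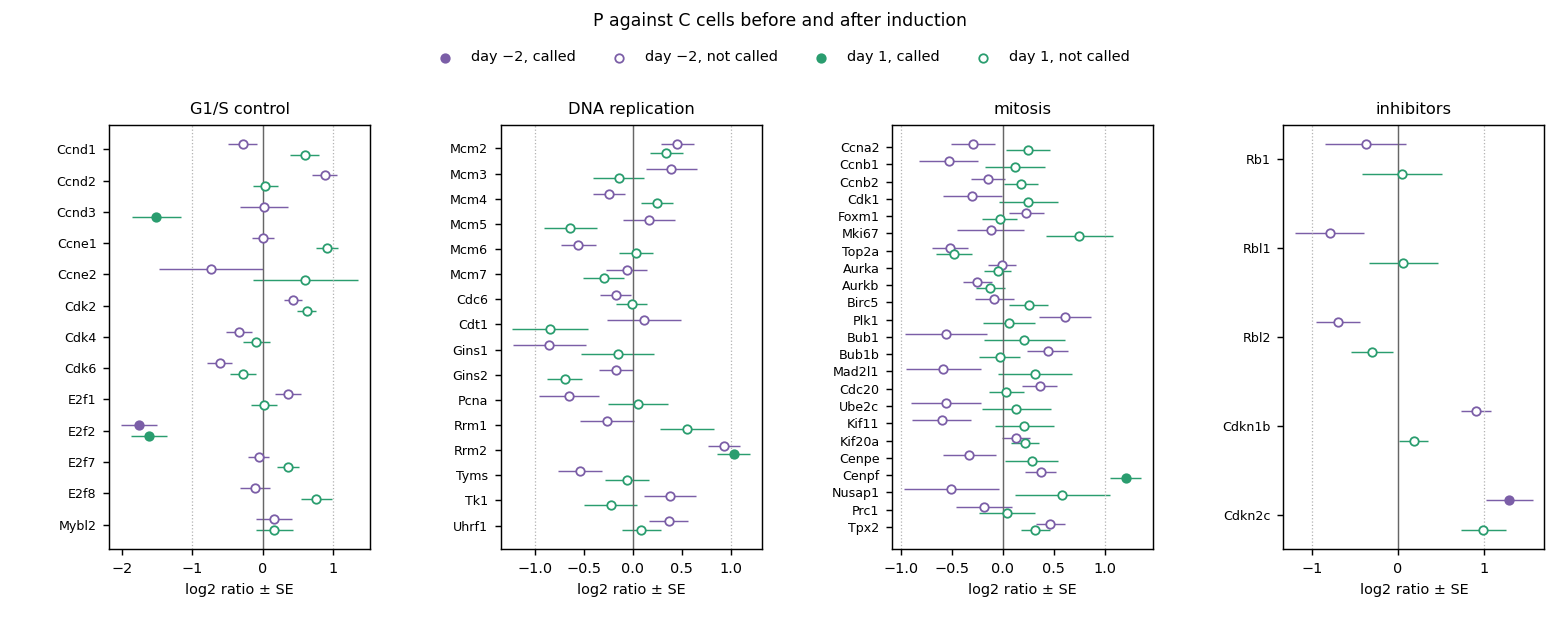
Log2 ratio of P to C cells with its standard error for each gene at day −2 (purple) and at day 1 (green). Filled points were called, and dotted lines mark ratios of 2 and 0.5. E2f2 lies at −1.76 and −1.62, Rrm2 at 0.93 and 1.03, and Ccnd3 at 0.01 and −1.51.

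At day 1, 2 genes were called higher in P cells, Cenpf and Rrm2, and 2 lower, Ccnd3 and E2f2, where 1.83% of all genes were called higher and 2.23% lower. At any ratio 4 were higher, with Ccne1 and Cdk2 added, against 2.73% of all genes, and 3 lower, with Gins2 added, against 3.42%. Leaving out any 1 of the 4 libraries of day 1 left 0 calls among these genes, with 8 or 9 at an unadjusted p under 0.05 in edgeR, in fits of 1 library against 2 that called 0.446% to 1.18% of all genes. The log2 ratios then lay between 1.15 and 1.22 for Cenpf, 0.90 and 1.14 for Rrm2, −1.74 and −1.51 for E2f2 and −1.69 and −1.36 for Ccnd3. The median log2 ratio was 0.16 in G1/S control, −0.04 in DNA replication, 0.21 in mitosis and 0.06 in the inhibitors, against 0.01 over all genes. That of DNA replication was 0.07 when scaled by library totals, a scaling that moved the median of all genes to 0.11. In mitosis 18 of 23 genes had a positive log2 ratio, 1 of which was called, and 21 had one when scaled by library totals.

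Rrm2 (NCBI gene 20135), the limiting subunit of the enzyme that makes deoxynucleotides, had 126 and 151 CPM in the C replicas and 272 and 254 in the P replicas of day −2, then 102 and 91.6 (C) and 215 and 181 (P) on day 1. The P libraries were above the C libraries at each day, by a log2 ratio of 0.93 (standard error 0.16, edgeR adjusted p = 0.025) at day −2 and 1.03 (standard error 0.17, edgeR adjusted p = 0.0238) at day 1. Its partner Rrm1 had −0.26 at day −2, or 0.12 without replica 1 of P cells, and 0.55 at day 1, and was not called. For Cenpf, whose values are given above, the log2 ratio was 0.37 at day −2 and 1.21 (standard error 0.15, edgeR adjusted p = 0.011) at day 1. Ccnd3 was lower in both P libraries than in both C libraries at day 1, with a log2 ratio of −1.51 (standard error 0.35, edgeR adjusted p = 0.0718), and its call was lost in 8 of the 17 alternatives tried, among them the omission of either C library of day −2. Ccne1 and Cdk2, the partners that drive entry into S phase, had log2 ratios of 0.91 (standard error 0.15, edgeR adjusted p = 0.0272) and 0.62 (standard error 0.13, edgeR adjusted p = 0.0572) at day 1. At day −2 the P libraries of Ccne1 lay on both sides of the C libraries, and Cdk2 had 0.42. Ccnd1 was above its C libraries in both P libraries of day 1, at 0.59 (standard error 0.21, edgeR adjusted p = 0.208), and Gins2 was below them, at −0.70 (standard error 0.18, edgeR adjusted p = 0.0965).

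The interaction term asks whether C and P cells responded unequally to induction. It was called for 0 of the 57 genes with edgeR at an adjusted p under 0.1, where 2.37% of all genes were called. An unadjusted p under 0.05 was found for 8 genes, and DESeq2 called 4 of them, Ccnd2, Ccnd3, Ccne1 and Cenpf, where it called 6.97% of all genes. The 8 genes were Ccnd1, Ccnd2, Ccnd3, Ccne1, E2f8, Mcm6, Cenpf and Cdkn1b. The difference between the responses, P minus C, was 0.91 (standard error 0.21, edgeR adjusted p = 0.127) on the log2 scale for Ccne1, 0.83 (standard error 0.21, edgeR adjusted p = 0.155) for Cenpf and −1.52 (standard error 0.49, edgeR adjusted p = 0.244) for Ccnd3. For Ccnd1 it was 0.88, for E2f8 0.87, for Mcm6 0.59, for Ccnd2 −0.84 and for Cdkn1b −0.72. With replica 1 of P cells at day −2 left out, edgeR gave values of −0.90 for Ccnd3, 0.59 for E2f8 and 0.64 for Cenpf. Without replica 2 it called 43, where 60.0% of all genes were called.

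Between the replicas of P cells at day −2, replica 1 minus replica 2 had a median log2 difference of 0.27 in G1/S control, 0.20 in DNA replication, −0.49 in mitosis and −0.79 in the inhibitors. In each of the other conditions these medians lay between −0.15 and 0.18. Of the 57 genes, 8 were over 2-fold lower and 2 over 2-fold higher in replica 1, against 0 in the other conditions. The share over all genes was not counted, but the replicas differed across the whole table. Among genes with a mean log2 CPM above 5, the SD of the log2 difference was 0.735 for the members and 0.795 for all genes. The gene farthest apart was Ccne2, with 3.30 and 22.3 CPM in replicas 1 and 2. Next came Nusap1 (13.0 and 41.2), Rb1 (3.04 and 8.31), Rbl1 (12.6 and 32.9), Bub1 (30.6 and 75.9), Mad2l1 (33.7 and 79.9), Gins1 (4.69 and 11.1), Mki67 (226 and 487) and, on the other side, Cdt1 (107 and 42.8) and Ccnd3 (125 and 57.8). In mitosis 16 of 23 genes were lower in replica 1, among them Ccnb1, Kif11, Ube2c and Cdk1, while Plk1, Bub1b and Foxm1 were higher. The helicase was split too, with Mcm2, Mcm3, Mcm5 and Mcm7 higher and Mcm4 and Mcm6 lower in replica 1. This library also had the lowest TMM factor, 0.837, and the fewest genes with counts, 16232. Replica 1 of C cells and replica 2 of P cells at day 1 came close to that number, with 16599 and 16831. The part of the TMM factor and the number of genes in the differences was not tested.

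**Figure D5:**
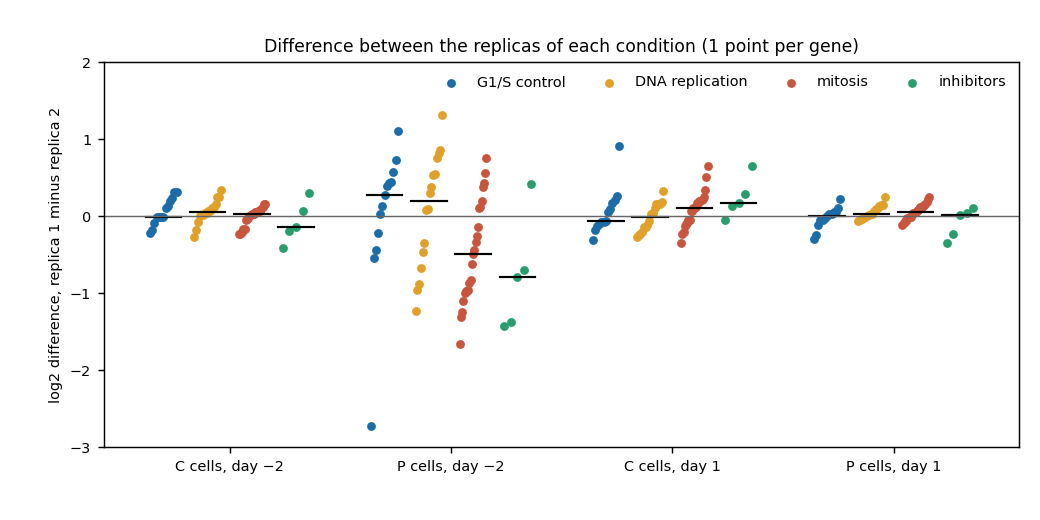
Log2 difference between replica 1 and replica 2 of each condition, 1 point per gene, coloured by role, with the median as a line. The points of P cells at day −2 run from −2.72 to 1.32, and those of the other conditions from −0.41 to 0.92.

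A wider list of 76 cell cycle genes that are not among the 58 was counted in the same way. In C cells induction called 9 of them (11.8%) lower and 5 (6.58%) higher, beside 9.68% and 10.7% of all genes. The lower ones were 6 of DNA replication, 2 of G1/S control and 1 of mitosis, and 4 of the higher ones were inhibitors. The ubiquitin ligase subunit Skp2, which marks p27 for destruction, had a log2 ratio of −1.52 (standard error 0.14, edgeR adjusted p = 0.000569) in C cells, and Chaf1b, a chaperone that lays histones on new DNA, had −1.59 (standard error 0.22, edgeR adjusted p = 0.00297) in C cells and −1.69 (standard error 0.22, edgeR adjusted p = 0.00307) in P cells. The antiproliferative gene Btg1 had 2.33 (standard error 0.19, edgeR adjusted p = 0.000356) and 2.21 (standard error 0.19, edgeR adjusted p = 0.000636), and Ccng2, an atypical cyclin of arrested cells, had 1.63 (standard error 0.18, edgeR adjusted p = 0.00113) in C cells. In P cells 5 genes of the list (6.58%), all of DNA replication, were called lower, beside 10.4% of all genes, among them Fen1, the flap nuclease of the lagging strand, at −1.12 (standard error 0.22, edgeR adjusted p = 0.0149), and 1 (1.32%) was called higher, beside 7.65%. With replica 1 of P cells at day −2 left out, 2 were called lower, Pola1 and Chaf1b but not Fen1, and 2 higher. The median log2 ratio of the 25 replication genes of this list was −0.53 (C) and −0.38 (P), that of the 30 genes of mitosis was −0.09 and 0.13, and that of the 9 inhibitors was 0.96 and −0.29, or 0.14 in P cells without replica 1 of day −2.

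In P against C cells at day −2 the wider list had 3 genes (3.95%) called higher and 0 lower, beside 4.83% and 2.15% of all genes. The 3, all listed as inhibitors, were Btg2, with a log2 ratio of 2.55 (standard error 0.26, edgeR adjusted p = 0.00377), Cdkn2d (p19), with 1.73 (standard error 0.38, edgeR adjusted p = 0.0495), and Cdkn1a (p21), with 1.48 (standard error 0.33, edgeR adjusted p = 0.0495), the last named after its values were seen. The median log2 ratio of the 9 inhibitors of the list was 0.45. Without replica 1 of P cells 2 were called, Cdkn2d and Btg2, with log2 ratios of 1.38 and 2.12, and that median was 0.39. At day 1, 0 of the 76 genes were called between P and C cells with edgeR, beside 1.83% of all genes called higher and 2.23% lower. Of the 76, 6 had an unadjusted p under 0.05 in edgeR. The interaction was called for 1 gene of the list (1.32%), beside 2.37% of all genes. This gene was Btg2, at −2.31 (standard error 0.36, edgeR adjusted p = 0.0388), also named after its values were seen. Without replica 1 of P cells at day −2 it was −1.90 for Btg2, and 11 genes of the list (14.5%) were called, beside 10.6% of all genes.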

How the data were processed

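Total RNA of 8 libraries, 2 replicas of each of 4 conditions, was sequenced on an Ion Torrent system. Per the labels and the study's methods, the authors aligned reads to mm9 with TopHat2 2.0.9 and counted them over annotated genes, and deposited raw read counts per gene, whole numbers that are not normalized. The labels also name DESeq. Whether counting used strand is not given in the sources used here, so reads of overlapping genes cannot be told apart. Library totals ran from 20428816 to 27614353 counts.

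The genes and gene lists were chosen with earlier results of these data known. Of 24013 gene identifiers, 23929 were matched to a symbol and 84 were not, and all 58 genes and 76 of a wider list were found, 1 of the latter by a synonym. Counts were tested with edgeR 4.0.16 (R 4.3.3, limma 3.58.1), by the quasi-likelihood test with TMM and filterByExpr, in 1 fit of all 4 conditions, with Benjamini-Hochberg adjustment over the 13339 genes tested. A gene was called at an adjusted p under 0.1 and a ratio over 2 or under 0.5, and the interaction at an adjusted p under 0.1 alone. Standard errors were derived from the log2 ratio and its p-value. The test was checked on simulated counts with 200 changed genes and the same spread in every library. No simulated library stood apart, so the check does not cover replicas such as those of P cells at day −2. Alternatives were DESeq2 1.42.0, other scalings, no filter, fits of the compared conditions, a replicate block, other thresholds and the omission of each library.

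Values in every library are given for genes called between P and C cells, for the 4 genes with the lowest p of each role by induction in C and in P cells, for all 6 inhibitors and for the 3 D-type cyclins. Coordinates and sequences were not used here, and a planned count of promoter motifs was not run.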

Additional observations from a re-analysis of the deposited data

How the results depend on the processing

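Whether the same replica number marks paired libraries is not given, and a single difference between replicas per condition cannot settle it. The correlation across genes of the deviations of same-numbered libraries was 0.209, −0.0523, −0.149, −0.355, −0.275 and −0.153 in the 6 pairs of conditions, of which 5 were negative. Among genes with a mean log2 CPM above 5 it was 0.438, −0.503, −0.197, −0.752, −0.192 and 0.137 in the same order. The first of these is for C and P cells at day −2. A replicate block gave 15 calls by induction in C cells, 15 in P cells, 2 between P and C cells at day −2, 3 at day 1 and 0 in the interaction, against 16, 16, 2, 4 and 0 without it. Of all genes the block called 18.6%, 15.6%, 4.48%, 2.89% and 0.877% in these comparisons. With the numbers of P cells at day 1 crossed, an alternative chosen after seeing the data, it gave 15, 16, 2, 4 and 0. Of all genes 20.0%, 16.5%, 5.05%, 3.21% and 1.11% were then called. Without a threshold on the ratio there were 29 calls in C cells, 27 in P cells, 6 at day −2 and 7 at day 1, where 35.6%, 31.4%, 11.3% and 6.15% of all genes were called. At day −2, library totals in place of TMM left 1 call, where 6.13% of all genes were called. A fit of the conditions compared left 0, where 0.637% were called, with 6 genes at an unadjusted p under 0.05 in edgeR. In the interaction DESeq2 gave 4 calls and library totals 1 (Ccnd1), where 6.97% and 2.04% of all genes were called. A fit of fewer conditions was not possible there. Omitting 1 library gave 12 to 17 calls by induction in C cells, 8 to 30 in P cells, 0 to 15 at day −2, 0 to 4 at day 1 and 0 to 43 in the interaction. The share of all genes called also changed with the library left out, and the cause was not tested.

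Of the log2 ratios of named genes under all alternatives, 780 kept direction and call, 45 lost a call, 14 gained one and 16 changed sign. That of Ccnd3 between P and C cells at day −2, 0.01, was −0.23 with library totals, −0.00851 in a fit of the conditions compared, −0.021 with the replicate block and −0.028 with the crossed block, and ran from −0.64 to 0.46 as libraries were omitted. With 1 library omitted, Rb1 ran from −1.29 to 0.17 at day −2 and from −0.26 to 0.39 at day 1, where the replicate block gave −0.012. Rbl1 ran from −0.24 to 1.16 by induction in P cells and from −0.091 to 0.18 in P against C on day 1, Ccnd3 from −0.37 to 0.72 by induction in P cells, and Ccnd2 from −0.085 to 0.11 at day 1. Library totals placed the median over all genes at −0.11 by induction in C cells, 0.19 in P cells, −0.18 at day −2 and 0.11 at day 1. The median of DNA replication at day −2 was 0.01 without replica 1 of C cells and 0.07 without replica 2 of P cells, and that of the inhibitors at day 1 was −0.09 without replica 2 of C cells. With 2 libraries per condition, a gene without a call is not shown to have the same level in the conditions compared.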
